A study of Mus musculus with 10 samples.

Results

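The genes described here encode metalloproteinases that cut the cell surface and the extracellular matrix, and relatives that lack protease activity. They are the Adam, Adamts and Adamts-like (Adamtsl) genes and the matrix metalloproteinases (Mmp). Members were all protein-coding genes whose symbol is one of these prefixes followed by a number, with or without further letters, as in Mmp1a. Symbols that end in the number made up 72. The mouse annotation held 81 members, 34 Adam, 19 Adamts, 5 Adamtsl and 23 Mmp. Of these, 53 had at least 1 accessible region in the cochlea, beside 72.5% of all protein-coding genes. These 53 were among 15861 genes with a region, and they held 316 of the 59255 regions that could be given to a protein-coding gene.

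Accessible chromatin was mapped by ATAC-seq, in which a transposase cuts and tags open DNA, in CD1 mice, an outbred stock. The age groups were 3 pups of postnatal day 2 (P2), 3 of day 5 (P5) and 4 of day 8 (P8). Both cochleae of an animal were combined, nuclei were purified without a sort for any cell type, and tagging followed the Omni-ATAC protocol. No treatment or mutation is named in the labels, so the 3 groups differ in age. The study set out to find regulatory elements that matter during development of the inner ear.

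The authors deposited 1 peak list per age, of 52085 (P2), 47683 (P5) and 43878 (P8) peaks, and no read counts or list per animal were used here. Peaks that overlap made 64911 regions, and every region went to the nearest gene within 100 kb. A region called at P2 and not at P8 is termed lost, and one called at P8 and not at P2 gained. A region's percentile is its place in the list of that age by the authors' ranking value, with 100 at the top. Of 8 cochlear genes (Gjb2, Gjb6, Sox2, Myo7a, Otoa, Tecta, Pou3f4 and Coch), 8 had a region and 7, all except Coch, had a region called at all 3 ages. Of all protein-coding genes 72.5% had a region, and 43 of the 53 members had one called at all 3 ages. These counts therefore do not identify the tissue. With 1 list per age no difference between ages has a replicate check, and in whole tissue fewer cells of a type and less accessibility per cell cannot be told apart.

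Most Adam proteins sit in the plasma membrane and release the outer parts of receptors, adhesion molecules and growth factors, among them Notch and tumour necrosis factor. Adamts proteases are secreted and cut proteoglycans, procollagens and microfibril proteins, while Adamts-like proteins share their ancillary domains but lack the protease domain. Matrix metalloproteinases degrade collagens, basement membrane and other matrix proteins, and in the inner ear such matrix forms the basilar membrane, the spiral ligament and the tectorial membrane.

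The members lost more of their regions than they gained between P2 and P8, as did regions in general. Gains were 29.9% of the changed member regions (23.2 to 37.5), beside 33.5% over all regions. Their called regions numbered 250, 224 and 188 at the successive ages. From the youngest to the oldest age 108 were lost and 46 gained, and 31 of the 53 genes had a net loss, 6 a net gain and 16 no net change. The lost regions were 43.2% of those called at P2 (95% Wilson interval 37.2 to 49.4, counting error only), beside 31.7% over all regions with a protein-coding gene. The gained regions were 24.5% of those called at P8 (18.9 to 31.1), beside 19% over all regions. A net loss was seen in 38.1% of all genes with regions and a net gain in 13.9%.

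Both steps between ages went the same way. From P2 to P5 the members lost 72 regions, 28.8% of those at P2 (23.5 to 34.7), and gained 46, 20.5% of those at P5 (15.8 to 26.3). The shares over all regions were 23.8% and 15.8%. From P5 to P8 they lost 63 regions, 28.1% (22.6 to 34.3), and gained 27, 14.4% (10.1 to 20.1), beside 21.5% and 15.7% over all regions. Regions called at all 3 ages numbered 135, or 42.7% (37.4 to 48.2), against 51.9% over all regions. The P8 list is shorter than the P2 list, and with each list limited to its 43878 highest-ranked peaks the members lost 75 regions and gained 54. The lost share was then 35.9%, beside 24.1% over all regions.

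**Figure D1:**
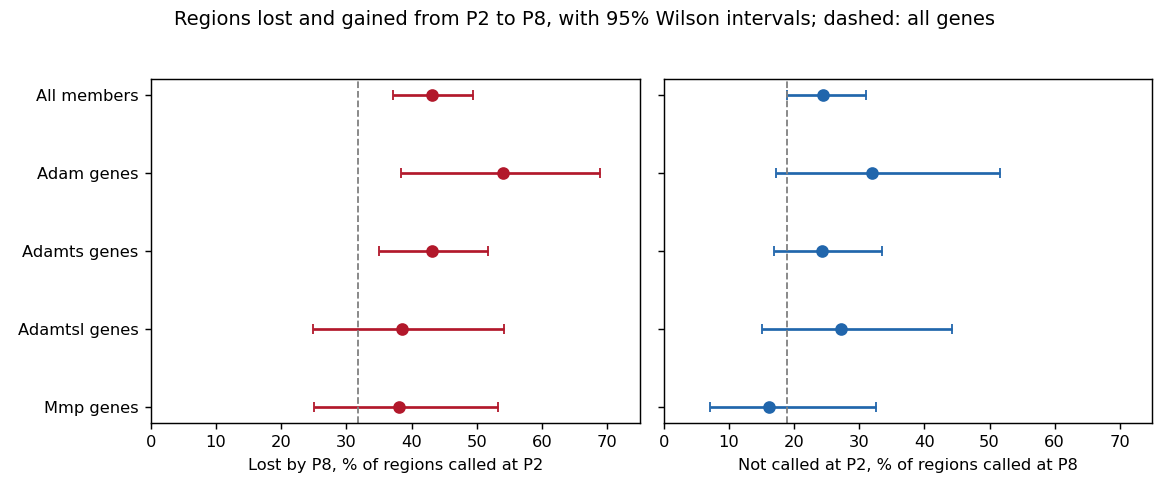
Share of regions lost (left, percent of regions called at P2) and gained (right, percent of regions called at P8) for all members and the 4 families, with 95% Wilson intervals that cover counting error only. The dashed lines mark all regions with a protein-coding gene, and the intervals for lost regions of all members, 37.2 to 49.4, of Adam, 38.4 to 69.0, and of Adamts, 35.0 to 51.7, lie above that line at 31.7%.

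The families shared the direction and differed in size. Over the 3 ages Adam genes held 37, 30 and 25 regions, with 20 lost and 8 gained. Adamts genes held 132, 116 and 99, with 57 lost and 24 gained. Adamtsl genes held 39, 39 and 33, with 15 lost and 9 gained, and Mmp genes 42, 39 and 31, with 16 lost and 5 gained. The lost share of P2 regions was 54.1% for Adam (38.4 to 69.0), 43.2% for Adamts (35.0 to 51.7), 38.5% for Adamtsl (24.9 to 54.1) and 38.1% for Mmp (25.0 to 53.2). These intervals overlap one another, so no order among the families can be read from them. In lists of equal length the Adamtsl genes lost 13 regions and gained 13. Adam lost 18 and gained 8, Adamts lost 35 and gained 27, and Mmp lost 9 and gained 6. All regions were themselves near balance in these lists, with 9835 lost and 9545 gained. The lost shares were then 51.4% for Adam, 32.7% for Adamts, 39.4% for Adamtsl and 26.5% for Mmp, beside 24.1% over all regions.

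**Figure D2:**
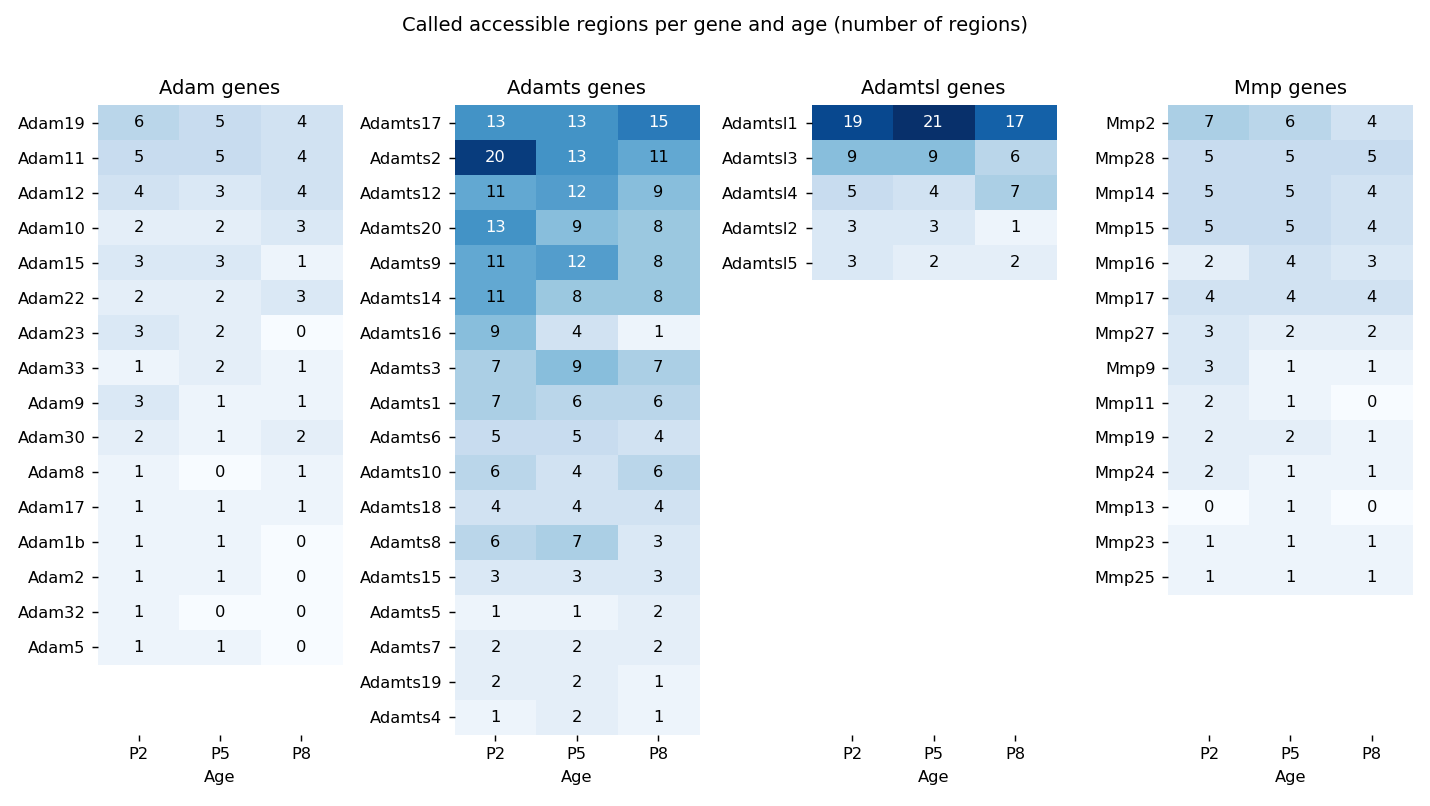
Number of called regions for each of the 53 members with a region (rows, grouped by family) at P2, P5 and P8 (columns), with darker blue for more regions. Adamtsl1 (19, 21 and 17) and Adamts2 (20, 13 and 11) have the darkest cells, and Adamts16 goes from 9 to 4 and 1.

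Promoters of the members fell into an accessible and a closed set. RefSeq promoter windows, 250 bases before and 50 after a transcription start, were at hand for 50 of the 81 members, as 55 windows of build GRCm38.p6. At the successive ages a peak overlapped 24, 21 and 19 of the 55, beside 51.1%, 48.4% and 48.1% of all 21262 windows. At some age 25 were overlapped, against 52.8% of all windows. Of the 10 Adamts windows, 9 were overlapped at P2 and the exception was Adamts13, whose protease cuts von Willebrand factor in blood. None of the 12 windows of the 10 Mmp genes on chromosome 9 was overlapped at any age, while 6 of the 9 windows of Mmp genes elsewhere were. Windows of Adam genes of the reproductive tract were overlapped in 0 of 10 cases, and those of catalytic Adam genes in 5 of 7.

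The 250 bases before the start are shown for promoters overlapped at all 3 ages, for promoters overlapped at P2 but not at P8, and for promoters of the chromosome 9 cluster overlapped at no age, so that the letters of an accessible and a closed promoter can be read side by side. All are from RefSeq, build GRCm38.p6, written 5′ to 3′ on the strand of the gene. The windows shown are examples from each set, chosen after their values were seen. Capitals mark the letters of 5 motifs searched on both strands. The Sp factors bind GGGCGG, which reads CCGCCC on the opposite strand. The E-box searched was the palindrome CAGCTG. For RUNX factors the letters were TGTGGT, which read ACCACA on the opposite strand. For AP-1 they were TGANTCA, and for the TATA box TATAAA. Matches of Sp letters may overlap each other in runs, and none of the motifs contains another. Adam17 encodes the sheddase of tumour necrosis factor, Adamts2 a procollagen protease, and Mmp14 the membrane protease that activates pro-Mmp2. All of them were overlapped at all 3 ages.
Adam17 (chr12:21373633-21373882, minus strand): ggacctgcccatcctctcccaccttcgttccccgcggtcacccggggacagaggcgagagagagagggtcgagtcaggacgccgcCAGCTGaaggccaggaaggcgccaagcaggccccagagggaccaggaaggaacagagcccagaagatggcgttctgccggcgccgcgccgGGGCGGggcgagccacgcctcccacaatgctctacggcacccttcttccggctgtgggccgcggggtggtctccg
Adamts2 (chr11:50601835-50602084, plus strand): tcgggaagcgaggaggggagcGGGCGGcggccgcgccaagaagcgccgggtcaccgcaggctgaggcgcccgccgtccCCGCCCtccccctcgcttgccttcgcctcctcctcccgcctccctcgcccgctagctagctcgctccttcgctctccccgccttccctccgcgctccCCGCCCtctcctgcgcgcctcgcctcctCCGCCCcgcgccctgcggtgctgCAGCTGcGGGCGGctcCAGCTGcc
Mmp14 (chr14:54431348-54431597, plus strand): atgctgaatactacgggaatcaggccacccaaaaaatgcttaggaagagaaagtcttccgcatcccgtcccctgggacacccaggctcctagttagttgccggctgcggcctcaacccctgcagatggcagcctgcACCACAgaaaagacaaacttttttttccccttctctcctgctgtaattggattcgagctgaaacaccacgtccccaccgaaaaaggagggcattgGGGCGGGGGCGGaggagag

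The next group was overlapped at P2 and not at P8. Adamts14, another procollagen protease, had its promoter peak at P2 only, while Mmp11 (stromelysin-3) and Mmp28 (epilysin) had theirs at P2 and P5.
Adamts14 (chr10:61273420-61273669, minus strand): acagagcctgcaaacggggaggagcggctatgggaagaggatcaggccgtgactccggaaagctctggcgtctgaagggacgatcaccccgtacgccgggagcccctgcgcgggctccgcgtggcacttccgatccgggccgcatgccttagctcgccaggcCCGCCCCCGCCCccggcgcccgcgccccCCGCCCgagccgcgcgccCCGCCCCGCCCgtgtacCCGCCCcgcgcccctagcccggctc
Mmp11 (chr10:75932503-75932752, minus strand): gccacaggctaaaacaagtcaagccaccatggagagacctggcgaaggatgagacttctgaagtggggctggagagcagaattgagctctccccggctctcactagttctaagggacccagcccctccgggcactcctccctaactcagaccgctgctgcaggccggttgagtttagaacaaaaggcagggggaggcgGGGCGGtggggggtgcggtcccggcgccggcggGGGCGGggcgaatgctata
Mmp28 (chr11:83463041-83463290, minus strand): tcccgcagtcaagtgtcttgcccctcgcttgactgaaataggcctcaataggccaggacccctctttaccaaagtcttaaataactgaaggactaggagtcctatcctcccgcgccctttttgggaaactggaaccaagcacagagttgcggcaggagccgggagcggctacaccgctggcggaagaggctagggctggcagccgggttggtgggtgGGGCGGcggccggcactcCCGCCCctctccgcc

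The last group lies in the chromosome 9 cluster and was overlapped at no age. Mmp13 and Mmp1a encode collagenases that cut fibrillar collagen, and Mmp3 and Mmp10 encode stromelysins.
Mmp13 (chr9:7272264-7272513, plus strand): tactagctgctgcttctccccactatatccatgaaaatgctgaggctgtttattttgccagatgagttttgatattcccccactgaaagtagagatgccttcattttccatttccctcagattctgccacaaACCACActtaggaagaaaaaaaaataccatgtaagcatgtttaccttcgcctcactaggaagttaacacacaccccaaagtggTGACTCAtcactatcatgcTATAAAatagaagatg
Mmp1a (chr9:7463891-7464140, plus strand): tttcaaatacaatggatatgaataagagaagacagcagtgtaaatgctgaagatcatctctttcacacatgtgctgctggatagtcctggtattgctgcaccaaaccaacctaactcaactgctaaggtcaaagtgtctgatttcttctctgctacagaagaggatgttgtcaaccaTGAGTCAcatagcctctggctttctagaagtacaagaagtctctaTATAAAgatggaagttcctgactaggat
Mmp3 (chr9:7445572-7445821, plus strand): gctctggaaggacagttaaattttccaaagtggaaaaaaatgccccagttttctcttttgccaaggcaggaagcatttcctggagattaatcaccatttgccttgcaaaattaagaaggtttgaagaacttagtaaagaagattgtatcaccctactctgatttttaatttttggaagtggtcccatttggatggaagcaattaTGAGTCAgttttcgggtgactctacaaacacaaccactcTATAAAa
Mmp10 (chr9:7502092-7502341, plus strand): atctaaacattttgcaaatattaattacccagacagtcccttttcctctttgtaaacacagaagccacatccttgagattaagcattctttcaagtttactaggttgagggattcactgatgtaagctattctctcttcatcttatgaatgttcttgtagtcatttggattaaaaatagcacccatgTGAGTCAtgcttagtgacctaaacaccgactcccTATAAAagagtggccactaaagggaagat

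In each of these 4 cluster sequences the AP-1 letters stand upstream of a TATA box, by the start site, and no Sp letters were found. Across the cluster, 8 of 12 windows held both the AP-1 letters and TATAAA and 0 held the Sp letters, with a median GC content of 41.7%. The sets are less uniform than the examples. Of the 18 member windows overlapped at all 3 ages, 14 held the Sp letters and 1, at Adam19, the AP-1 letters. The Adam23 window, overlapped at P2 and not at P8, held none of the motifs searched. Among all 55 member windows the 25 overlapped at some age had a median GC content of 66.0%, and 20 of them held the Sp letters, 1 the AP-1 letters and 2 the TATA letters. The 30 that were overlapped at no age had a median GC content of 42.8%, and 4 held the Sp letters, 12 the AP-1 letters and 14 the TATA letters. Over the whole genome the same contrast was present: 78.5% of windows with the Sp letters were overlapped and 30.7% of those without, 32.2% with the AP-1 letters and 54.4% without, and 24.6% with TATAAA and 56.9% without. The AP-1 letters were in 13 of the 55 member windows, 23.6%, beside 7.0% of all windows. RUNX letters were in 12 windows, the E-box in 9, TATAAA in 16 and Sp letters in 24, against 14.97%, 15.6%, 12.6% and 46.2% of all windows. A match of letters is a description of the window and not a binding site.

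**Figure D3:**
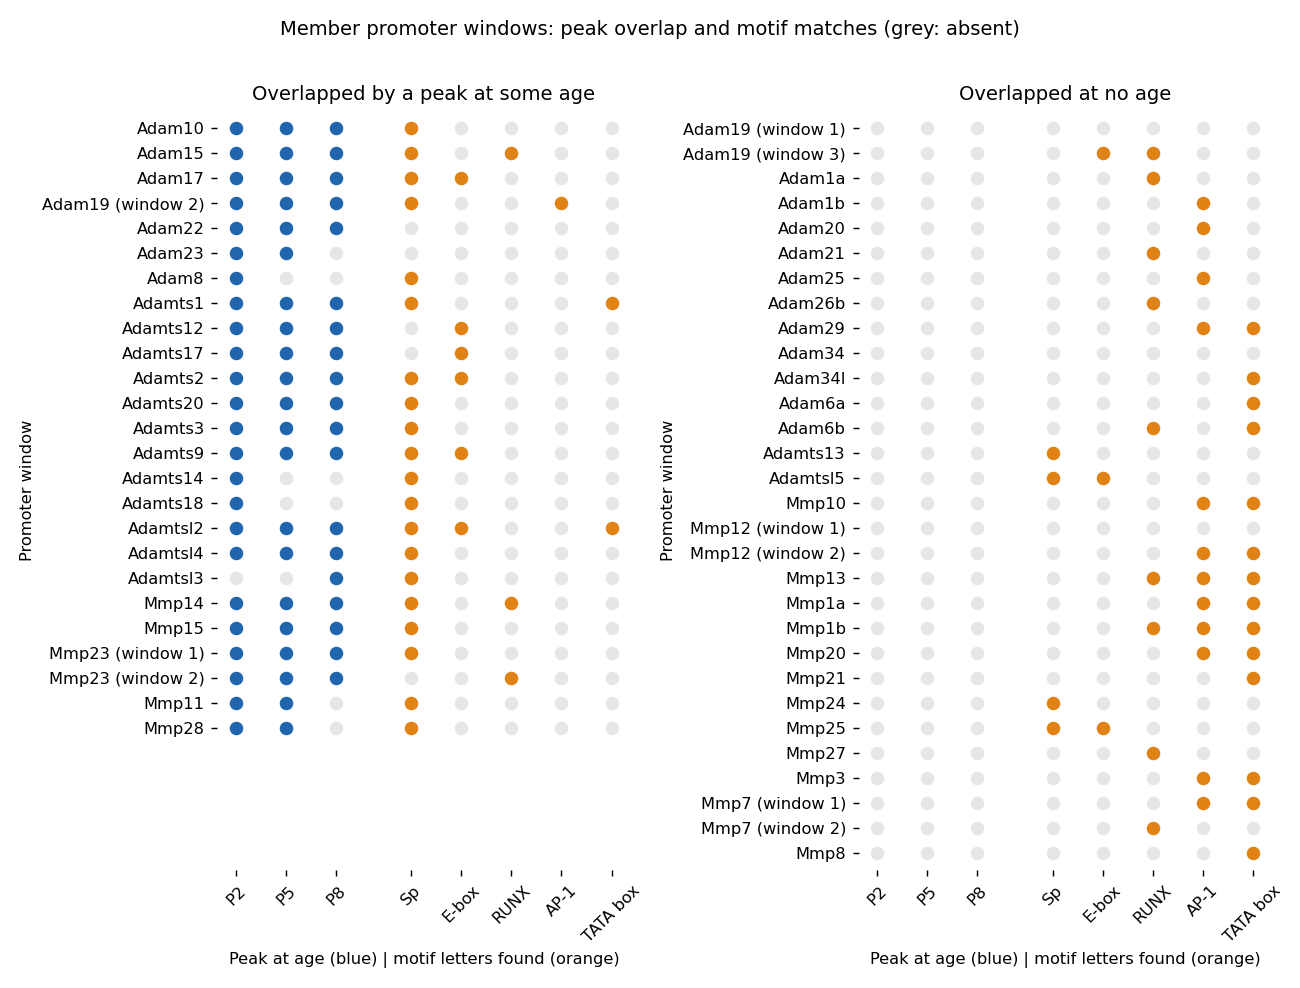
Each row is 1 of the 55 promoter windows of 300 bases, split into the 25 overlapped by a peak at some age (left) and the 30 overlapped at none (right). Blue dots mark a peak at P2, P5 or P8 and orange dots motif letters found on either strand, with Sp dots on 20 rows at left and AP-1 dots on 12 rows at right.

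Of the windows overlapped at P2, 25.0% (12 to 44.9) were not overlapped at P8, beside 8.42% over all windows. Windows overlapped at P2 and not at P8 were those of Adam8, Adam23, Adamts14, Adamts18, Mmp11 and Mmp28, 6 of the 24 overlapped at P2. Those of Adam8, Adamts14 and Adamts18 had a peak at P2 only. The P2 percentiles of these 6 ran from 8.04 for Adamts14 to 42.4 for Mmp11, so each was under percentile 50. The reverse change was seen at Adamtsl3 alone, whose peak at P8 was at percentile 20.8.

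Among the Adam genes, the best-known sheddases had a promoter called at every age. Adam17 had a single region, its promoter at chr12:21373375-21373953, at percentiles 98.5, 97.3 and 97.0 at P2, P5 and P8. The Adam10 promoter, whose protease cuts Notch and many adhesion proteins, lay at chr9:70678679-70679180 at percentiles 97.5, 96.1 and 97.7. Both stayed near the top of each list. The other 3 Adam10 regions were weak and each was called at P8 or P2 but not both: those called at P8 were at percentiles 1.5 and 20.1, and the lost one had been at 37.0.

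The catalytic Adam genes, Adam10 and Adam17 included, held 29 of the 47 Adam regions and 19 of the 28 that changed between P2 and P8. The 8 of 9 with regions held 21, 17 and 16 regions, with 12 lost and 7 gained. Their lost share was 57.1% (36.5 to 75.5), beside 31.7% over all regions. Adam19, a sheddase of neuregulin, held 6, 5 and 4 regions, all inside the gene, with 3 lost and 1 gained. Its strongest region, by an annotated start at chr11:46055769-46056271, was at percentiles 83.8, 76.4 and 47.1, lower at P8 than at either earlier age. Adam15 went from 3 regions at P2 and P5 to 1 at P8, the promoter being kept at percentiles 84.3, 77.2 and 86.1. Adam9 went from 3 to 1 and 1, and its kept region went from 22.5 to 29.3 and 47.6. The 2 regions lost at Adam9 were at percentiles 16.0 and 26.6 at P2. No Adam9 region was in the upper 50% of any list, so that limit leaves nothing to compare there.

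The neural Adam genes, whose products lack protease activity and act as receptors for Lgi proteins, differed in their counts. Adam23 had 3, 2 and 0 regions. They were its promoter, at percentiles 38.2 and then 1.25, a region at chr1:63518785-63519286 at 53.3 and then 46.7, and a weak one at 16.0. Adam22 held 2, 2 and 3 regions, and the 1 gained was weak, at percentile 4.47 at P8. Its start region was at 85.9, 75.7 and 73.0, and its other kept region at 52.5, 69.5 and 34.0. Adam11 held 5, 5 and 4. Its region at chr11:102774608-102775107, inside the gene and 5406 bp from the nearest gene end, was the highest-ranked distal Adam region at every age, at percentiles 96.2, 93.0 and 91.6.

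Adam genes of the reproductive tract, which include the sperm proteins of fertilization, had few regions. Of 21 such genes 5 had any, 6 regions in all, with 6, 4 and 2 called at the 3 ages. The interval that spans Adam26b, Adam26a, Adam34 and Adam34l (chr8:43519864-43703424) held no region at any age, nor did the one that spans Adam24, Adam25, Adam20 and Adam39 (chr8:40675077-40826861). Of the 6, 4 lay within 1 kb of a gene end. Adam2, Adam1b and Adam5 each had 1 region called at P2 and P5 only, and Adam32 had 1 at P2 only, at percentiles of 17.4 to 33.9 at P2. Adam30 had 2 regions, both outside the gene and both called at P2 and P8. One, 14019 bp from the gene, was called at every age, at percentiles 66.0, 87.2 and 83.7.

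Adamts genes carried the most regions, with a median of 8.5 per gene with regions, beside 2 over all genes with regions. Across the 53 members the number of regions went with gene length (Spearman 0.494 over 53 genes, a description). The procollagen N-propeptidases, which trim fibrillar procollagens, held 38, 30 and 26 regions, with 14 lost and 2 gained. Their lost share was 36.8% (23.4 to 52.7), an interval that includes the 31.7% over all regions. Adamts2 (chr11:50602085-50807573) alone held 20, 13 and 11. It lost 9 regions and gained 0, and of the 9 only 2 were still called at P5. Its promoter stayed at percentiles 70.5, 67.2 and 69.7, and a region at chr11:50769421-50769924 inside the gene at 80.0, 81.7 and 78.6. The 9 lost regions had been at percentiles 1.9 to 52.6 with a median of 26.6, and the 11 kept ones included the 6 strongest at P2.

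The other procollagen proteases changed less. Adamts14 held 11, 8 and 8 regions, with 4 lost and 1 gained, and its strongest, at chr10:61232826-61233345 inside the gene, was at 83.2, 84.7 and 72.7. Adamts3 held 7, 9 and 7, with 1 lost and 1 gained. In lists of equal length the net change was −4 regions for Adamts2 in place of −9, and 0 for Adamts14 in place of −3.

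Adamts16, whose product can cut fibronectin, lost nearly all of its regions. It held 9, 4 and 1, and the 8 lost ones were spread over the gene (chr13:70727798-70841845) and up to 42064 bp outside it. The only region kept, at chr13:70840106-70840622 inside one end of the gene, was at percentiles 45.8, 37.3 and 31.5. The 8 lost regions were all weaker, at percentiles 2.8 to 28.6 at P2 with a median of 13.4, and 2 were still called at P5. No region of the gene, kept or lost, was in the upper 50% of any list, so that limit leaves nothing to compare. In lists of equal length the net change was −4. Without Adamts2 and Adamts16 the members lost 91 regions, 41.2% of those at P2.

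Adamts17, a protease linked to fibrillin microfibrils and short stature in people, went the other way. It held 13, 13 and 15 regions, with 5 lost and 7 gained. Its promoter, at chr7:66839383-66839883, was the highest-ranked Adamts region at each age, at percentiles 96.0, 96.5 and 94.8. The region at chr7:67064531-67065112, inside the gene, went from 27.9 to 60.5 and 69.1, while that at chr7:66955847-66956442 went from 74.3 to 34.5 and 31.9. The lost and the gained regions were weak alike, the lost ones at 11.4 to 33.1 at P2 and the gained ones at 0.6 to 44.5 at P8. With regions given to the nearest gene end instead of the nearest gene body the net change was 0.

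**Figure D4:**
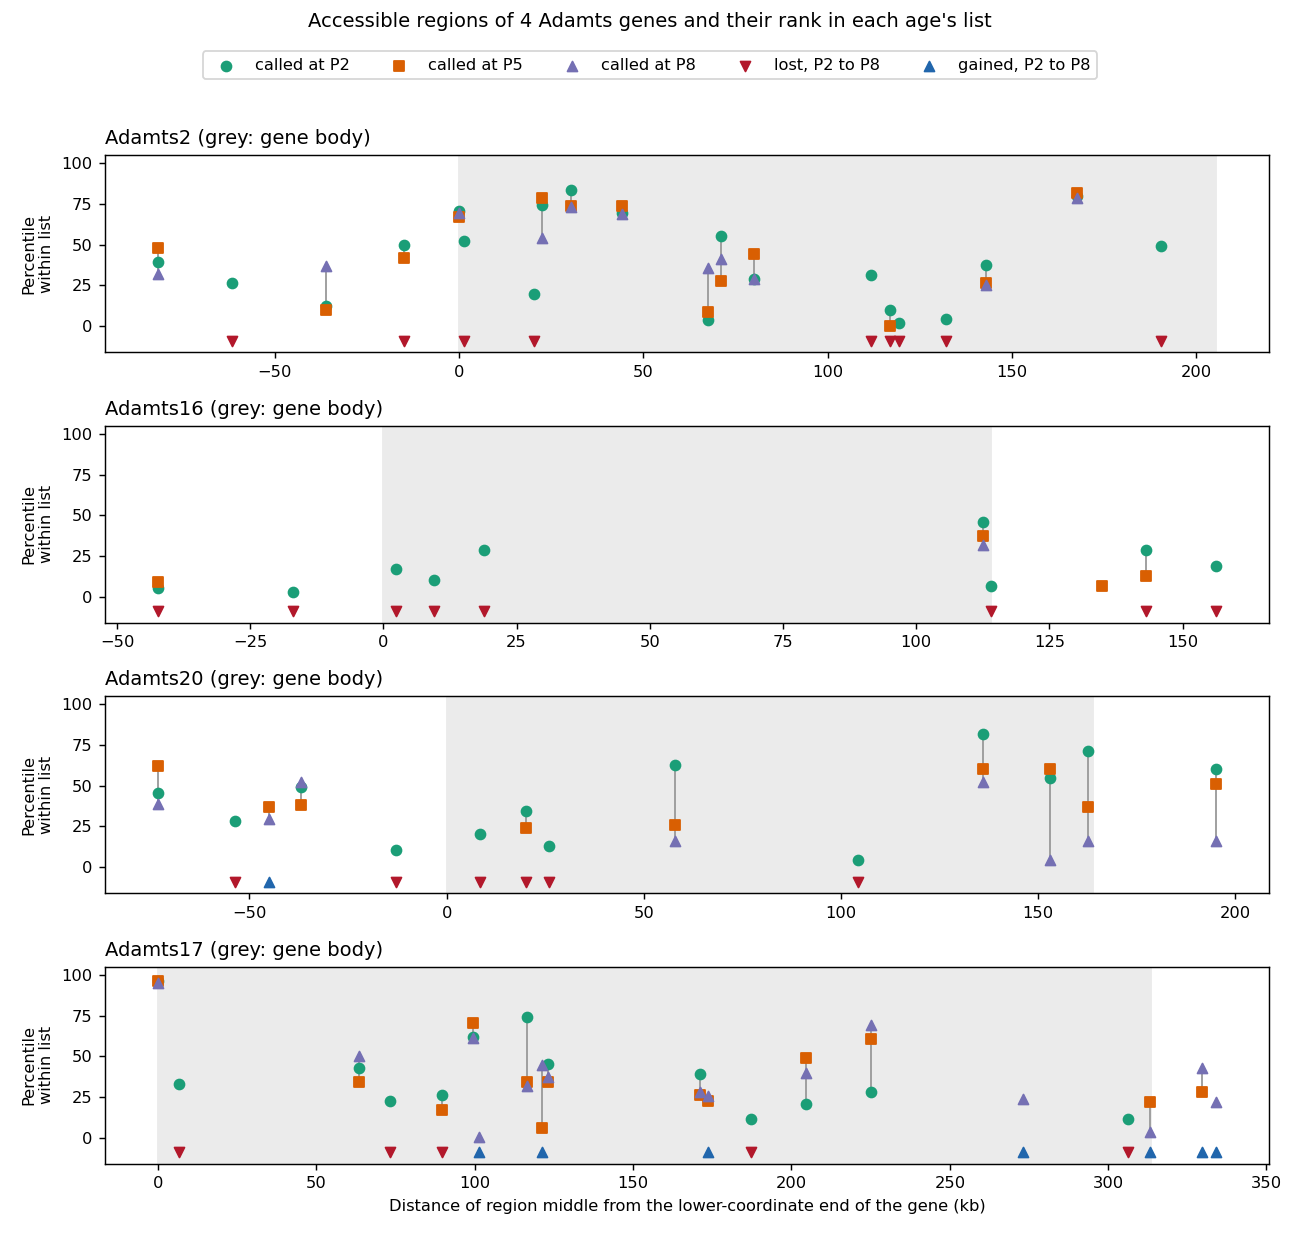
Regions of Adamts2, Adamts16, Adamts20 and Adamts17 by distance from the lower-coordinate end of the gene (kb, x axis) and percentile within the list of each age (y axis), with the gene body in grey. Triangles under the percentile scale mark regions lost (red) or gained (blue) between P2 and P8: Adamts16 has 8 lost and 0 gained, Adamts17 has 5 lost and 7 gained.

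The remaining genes of this class, with Adamts16 and Adamts17, made up 6 genes with 39, 32 and 31 regions, 20 lost and 12 gained. Of the P2 regions of the 6 genes 51.3% were lost (36.2 to 66.1), beside 31.7% over all regions. Adamts10, a fibrillin-binding protease, held 6, 4 and 6, Adamts6 held 5, 5 and 4, and Adamts18 held 4 at each age.

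The 7 hyalectan-cleaving genes, whose proteases cut aggrecan and versican, held 42, 40 and 31 regions, with 18 lost and 7 gained. Their lost share was 42.9% (29.1 to 57.8), an interval that includes the 31.7% over all regions. Adamts20, a versican protease needed for coat pigment cells, held 13, 9 and 8, with 6 lost and 1 gained. Several kept regions also ranked lower with age: the one 1175 bp from the gene's upper-coordinate end, at chr15:94430644-94431155, went from 71.3 to 37.1 and 16.1, and the one at chr15:94404118-94404653 from 81.7 to 60.3 and 52.3. Of the 6 lost, 1 was still called at P5. Adamts9, its closest relative, held 11, 12 and 8, with 5 lost and 2 gained, yet its intragenic region at chr6:92850126-92850633 stayed at 86.7, 91.4 and 90.2. Adamts8 held 6, 7 and 3, and the 3 lost regions were all still called at P5, at percentiles 21.2 to 57.2. In lists of equal length the net change was −2 for Adamts20, −1 for Adamts9 and −2 for Adamts8, in place of −5, −3 and −3.

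Adamts1 and Adamts5 lie next to each other on chromosome 16. Adamts1 held 7, 6 and 6 regions, and 2 of those below the gene in coordinate ranked higher at P5 and P8 than at P2. The region at chr16:85756037-85756624, 37203 bp from the gene, went from percentile 76.2 to 91.5 and 91.0, and that at chr16:85772045-85772740, 21087 bp away, from 19.5 to 71.0 and 67.0. Adamts5, the main aggrecan-cleaving protease of mouse cartilage, held only 1, 1 and 2 regions, no region of it was called at more than 1 age, and none was above percentile 10.7. The count for Adamts1 depends on distant regions: its net change was −1, but 1 with a limit of 50 kb.

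The COMP-cleaving genes Adamts7 and Adamts12 held 13, 14 and 11 regions, with 5 lost and 3 gained. Their lost share was 38.5% (17.7 to 64.5), an interval that includes the 31.7% over all regions. Adamts12 held 11, 12 and 9. Its 3 gained regions were all called at P5 as well, and 2 of its 5 lost regions had been too, at chr15:11098255-11098796 (percentiles 64.3 and 75.3) and chr15:11186656-11187185 (22.5 and 63.3). With the upper 50% of each list its net change was 2 in place of −2.

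Among the Adamts-like genes, Adamtsl1 held the most regions of any member, 27, over a gene of 915 kb. It had 19, 21 and 17 at the 3 ages. Of its 6 gained regions, 5 lay together between chr4:86209406 and 86352624, and all 6 were already called at P5. In that stretch the region at chr4:86278518-86279075 was called at all ages and went from percentile 3.4 to 62.3 and 66.1. Of the 8 lost regions, 7 lay at lower coordinates, up to chr4:85842573. The top region, at chr4:86020558-86021064, was at 85.3, 82.4 and 76.0. The net change was −2, but 1 in lists of equal length and 4 when only changes with a call at P5 count.

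Adamtsl4, a fibrillin-binding protein of the eye's zonule, gained regions. It held 5, 4 and 7, with 2 gained and 0 lost. Both gained regions lay outside the gene, at chr3:95689459-95689957 and chr3:95696388-95696886, and were at percentiles 26.3 and 26.1 at P8. Its kept region at chr3:95674085-95674592 went from 72.7 to 36.3 and 26.5, and with the upper 50% of each list the net change was −2. Adamtsl3 held 9, 9 and 6, with 4 lost and 1 gained, and Adamtsl2, which binds fibrillin and latent growth factor complexes, 3, 3 and 1. The region kept at Adamtsl2, by the lower-coordinate end of the gene, went from 66.7 to 52.9 and 26.0.

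Among the matrix metalloproteinases, the membrane-anchored ones held similar counts at each age. The 6 genes, all with regions, held 19, 20 and 17, with 5 lost and 3 gained. The lost share was 26.3% (11.8 to 48.8), an interval that includes the 31.7% over all regions. Mmp17, anchored by a lipid, had the same 4 regions at every age. Mmp14 held 5, 5 and 4, its promoter at percentiles 62.8, 61.5 and 67.6. Mmp15 held 5, 5 and 4, a net change of −1 that was 1 in lists of equal length. Mmp16 held 2, 4 and 3 with the region inside its lower-coordinate end at 85.0, 80.8 and 71.7.

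The gelatinases, which cut denatured collagen and basement membrane collagen, held 10, 7 and 5 regions, with 5 lost and 0 gained. Their lost share was 50.0% (23.7 to 76.3), an interval that includes the 31.7% over all regions. Mmp2 held 7, 6 and 4. Its intragenic region at chr8:92850134-92850634 was the highest-ranked distal Mmp region at P2 and P8, at percentiles 93.8, 92.7 and 94.98, and a region 8644 bp outside the gene, at chr8:92818143-92818646, was at 89.6, 89.8 and 91.4. These stayed high while the region at the gene's lower-coordinate end, chr8:92827105-92827608, went from 76.2 to 34.7 and 38.5. The 3 lost regions were at 6.8 to 53.0 at P2. Mmp9, the gelatinase of neutrophils and osteoclasts, held 3, 1 and 1, with its kept region at 74.4, 69.3 and 60.4 and the 2 lost at 14.8 and 15.4. The Mmp9 change disappears in lists of equal length.

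Mmp11 was the only stromelysin with regions, which numbered 2, 1 and 0. Its promoter region, chr10:75932286-75932796, was at percentiles 42.4 and 17.2 at P2 and P5. Mmp28 held 5 regions at each age with 2 lost and 2 gained. Its promoter was 1 of the lost regions, at percentile 10.9 at P2 and 1.39 at P5.

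The Mmp cluster on chromosome 9 (chr9:7272514-7699585) holds 10 genes, among them the collagenases Mmp1a, Mmp1b, Mmp8 and Mmp13, in 427 kb. It held 3 regions, or 7.02 per Mb, beside 23.9 per Mb over all chromosomes. All lay between genes and nearest to Mmp27. The strongest, at chr9:7595114-7595707, 13229 bp from Mmp27, was high at each age, at percentiles 90.5, 92.9 and 91.5. Another, at chr9:7603905-7604412, was called at every age at 51.2, 40.0 and 40.3, and the third at P2 only. Mmp13 had 1 region outside the cluster's bounds, 24129 bp from the gene, called at P5 only at percentile 3.5. A region given to the nearest gene need not act on that gene.

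Members' regions ranked lower and lay farther from gene ends than regions in general. By age their median percentiles were 43.8, 37.8 and 40.7, beside 51.3, 51.4 and 51.2 over all regions with a gene. Near a gene end, by the limit of 1 kb, were 61 of 316 regions, or 19.3% (15.3 to 24.0), beside 27.2% over all regions. Lost regions had a median P2 percentile of 23.4 and kept ones 62.1, and 94 of the 108 lost were under 50. Gained regions had a median P8 percentile of 22.8, and 41 of 46 were under 50.

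The lost share was higher than over all regions in each class of rank and in each class of place, taken separately. Of member regions under percentile 50 at P2, 64.4% were lost (94 of 146, 56.3 to 71.7), beside 57.2% over all. At percentile 50 or higher, 13.5% were lost (14 of 104, 8.19 to 21.3), beside 7.53%. All 14 of these lay more than 1 kb from gene ends, so no member region of this rank was lost at a gene end. Over all regions 1440 of the 1858 lost at this rank lay that far. At gene ends the members' lost share was thus not the higher one for this rank. More than 1 kb from gene ends, 44.8% were lost (87 of 194, 38.0 to 51.9), beside 38.6%. Within 1 kb of a gene end, 37.5% were lost (21 of 56, 26.0 to 50.6), beside 16.5%. The gap was widest at gene ends, where the members' interval does not reach the general share. All 21 member regions lost there were under percentile 50. Ranks were not matched in that comparison, so it does not separate place from rank. At percentile 50 or higher the members' interval also lies above the general share. For regions under percentile 50 and for those more than 1 kb away the interval includes it. With place and rank combined, distal member regions at percentile 50 or higher lost 18.7% (11.5 to 28.9), beside 10.8% over all. Distal ones under percentile 50 lost 61.3% (52.4 to 69.6), beside 57.2%. Regions of 1 gene share a locus and are not independent, and read depth per age is unknown.

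Genes that act on or with these proteases held fewer regions at P8, with shares lost and gained whose intervals include those over all regions. Of 45 inhibitors, activators, trafficking partners and substrates, 42 had regions, which numbered 222, 201 and 184, with 78 lost and 40 gained. Of their P2 regions 35.1% were lost (29.2 to 41.6), beside 31.7% over all regions, and of their P8 regions 21.7% were gained (16.4 to 28.2), beside 19.0%. The net change of −38 was −8 in lists of equal length. Net losses were seen at 24 genes, net gains at 7 and no net change at 11.

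Inhibitor genes had 4 gained and 2 lost regions, too few to set apart from the shares over all regions. The tissue inhibitors Timp1, Timp2 and Timp3 and the membrane inhibitor Reck held 15, 13 and 17 regions, with 13.3% lost (3.7 to 37.9) and 23.5% gained (9.6 to 47.3). Timp3, which is bound to the matrix, held 6, 7 and 8. Trafficking partners of Adam10 and Adam17 held 53, 43 and 40. Tspan5 went from 14 to 12 and 8, Tspan15 from 8 to 5 and 4, both tetraspanins that carry Adam10, and Rhbdf2, which carries Adam17, from 5 to 4 and 3. Proprotein convertases, which activate many of these enzymes, held 22, 20 and 19, and Pcsk6 13, 9 and 11.

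Among substrates, proteoglycan genes held 22, 17 and 15 regions. Versican (Vcan) went from 5 to 3 and 2, and neurocan (Ncan) from 4 to 2 and 1. Notch receptors and ligands held 40, 36 and 31, with Notch1 at 12, 13 and 9, Notch3 at 8, 4 and 6 and Jag2 at 3, 2 and 1. Lgi genes, whose products bind Adam22 and Adam23, held 8, 5 and 3, with Lgi2 at 3, 1 and 0 and Lgi3 at 3, 2 and 1. Microfibril genes were near balance at 62, 67 and 59, with 19 gained and 22 lost. Their lost share was 35.5% (24.7 to 47.9), beside 31.7% over all regions, and their gained share 32.2% (21.7 to 44.9), beside 19.0%. There, fibrillin-1 (Fbn1) went from 4 to 8 and 6 and Ltbp1 from 6 to 7 and 8, while Ltbp3 went from 3 to 1 and 1 and Thsd4 from 24 to 27 and 21. In lists of equal length Thsd4 had a net change of 3 in place of −3, and with the upper 50% of each list Ltbp1 had −1 in place of 2 and Jag2 had 1 in place of −2.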

How the data were processed

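Nuclei of 10 animals were profiled, and 3 deposited peak lists, 1 per age, were used. Build mm10 and the tools MACS2 2.1.0, Subread 1.4.6-p3 and Trimmomatic 0.33 are listed in the submitters' processing notes, and their settings are not given in the sources used here. In the deposited lists, laid out as by the irreproducible discovery rate (IDR) method, the authors' ranking value is a −log10 p-value, the smaller of the values from 2 input lists of unstated animals. Peaks are 499 bp wide, and the deposited IDR score of each corresponds to an IDR of at most 0.0501. Ranking values start at 19.5, 13.5 and 11.4 at the 3 ages and served only to order peaks within a list. Read filtering and the shift for the transposase were not stated, and depth per sample is unknown from these files.

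Overlap by 1 bp or more joined peaks into regions (Python 3.11.15, pandas 2.3.3). Regions went to the nearest of 21883 protein-coding genes of RefSeq GRCm38.p6, the same build. Inside several genes, the gene whose end was nearest the region's middle was taken. Starts were read as counted from 0, uncertain by 1 bp. The gene table has no strand or exons, so nearness was to either gene end. Intervals are Wilson 95%, and no p-value was computed. Members and gene lists were chosen with earlier results of these data known. Members were named for a net change of at least 2 regions either way, the most regions in their family or its highest-ranked distal region, besides up to 3 per role group. Further members, such as those with a changed or shown promoter, Adam5, Adam32 and Adamts5, were chosen after their values were seen. The merging and counting steps were tested on simulated lists. Alternatives were a stricter IDR, the upper 50% and equal lengths of the lists, other overlaps and assignments, and peaks without merging. Others were symbols without further letters, changes with a call at P5 and, chosen after seeing the data, leaving out Adamts2 and Adamts16. Sequences of distal regions and proteins were not used here.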

Additional observations from a re-analysis of the deposited data

How the results depend on the processing

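No paired analysis was possible because each age has 1 list and no list per animal. For the main comparisons 61 alternatives left the value within its counting interval and 13 moved it out. No balance of gains against losses turned, but the lost, gained, all-age and gene-end shares have no direction that could turn. The side of the share over all regions was not part of this count. From P5 to P8 the gained share was 14.4%, beside 15.7%, but 17.2%, beside 13.8%, at the stricter IDR. The share of gains among changed member regions from P2 to P8 was 29.9%, beside 33.5% over all regions. In lists of equal length it was 41.9%, beside 49.3%, and for changes also called at P5 37.7%, beside 36.6%. From P2 to P5 it was 29.3% in the upper 50% of each list, beside 36.0%. The lost share was 17.2% for changes also called at P5, beside 12.3% over all regions, a setting in which a region gone by P5 cannot count as lost, and 35.9% in lists of equal length and 36.2% with every gene within 50 kb, where the gained share was 17.8% and the share called at all ages 49.3%. The share near a gene end was 26.3% within 2 kb and 14.6% within 500 bp, beside 34.3% and 22.1% over all regions. The related genes' net change was −59 at an IDR of at most 0.01, −43 in the upper 50%, −8 at equal length and −6 for changes called at P5.

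Directions turned for Adamts1 (1 within 50 kb, nearest or every gene), Adamts12 (2 in the upper 50%, 1 for changes called at P5), Adamtsl1 (1 at equal length, 2 by nearest gene end, 4 for changes called at P5), Adamtsl4 (−2), Jag2 (1) and Ltbp1 (−1) in the upper 50%, and Thsd4 (3 at equal length). Among members with a net change of 1 region they turned for Adam10 (−1 at the stricter IDR and with every gene within 50 kb), Mmp15 (1 at equal length and in the upper 50%), and Adam22 (−1), Mmp16 (−1) and Mmp19 (1) in the upper 50%. Of 22 members named for their net change or strongest regions, the sign held for 18 at equal length and 22 at the stricter IDR, but for 14 in the upper 50% and 12 for changes called at P5, where most others were 0. The cause was not tested. The share called at all ages has no value without merging. Unknown depth limits every comparison of ages.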

Other observations

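The members' neighbourhoods differed in how much open chromatin they held. The interval that spans Adamts8 and Adamts15 on chromosome 9, 64.7 kb long, held 6 regions, 92.8 per Mb, with 5, 6 and 4 called at P2, P5 and P8. The interval of Adamts1 and Adamts5 on chromosome 16, 107 kb long, held 7 regions, 65.2 per Mb, with 3, 3 and 5 called, 3 gained and 1 lost. The interval of Adam3, Adam5, Adam18, Adam32 and Adam9 on chromosome 8 held 6 regions in 415 kb, with 6, 3 and 2 called and 4 lost. Of all chromosomes up to their last region, the mean was 23.9 per Mb.

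The region by the start of Adamtsl3 at chr7:82335169-82335667 was called at P8 only, at percentile 20.8, while the neighbouring region at chr7:82336043-82336549 was called at P2 and P5 only, at 48.2 and 17.6. The pair lies within 1 kb of the same gene end.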
